A study of Mus musculus with 36 samples.

Results

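Accessible chromatin was described across 120 kb around Nppb and Nppa, the neighbouring natriuretic peptide genes, in nuclei that the labels describe as enriched for cardiomyocytes, from the border zone of a mouse myocardial infarction and from sham-operated hearts. All deposited regions that overlap chr4:147300000-147420000 (mm9) were taken, whatever their values. They numbered 21 of 122759 regions, 7 each on days 4, 7 and 14 after surgery, of 46827, 34952 and 40980 on these days. Joined across days where they overlap by at least 1 bp, they formed 10 of the 60847 loci of the series. Distances are from the single positions used for the genes, 147360000 for Nppb and 147375000 for Nppa, since no mm9 annotation was used. "Before" means toward lower coordinates, and "beyond" toward higher ones. The regions could therefore not be assigned to exons, introns or untranslated regions.

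Nppb encodes B-type natriuretic peptide and Nppa encodes atrial natriuretic peptide, hormones that the heart secretes when its wall is stretched and that lower blood volume and pressure. Both genes are active in the fetal ventricle, decline there after birth and return in stressed ventricular muscle, where their RNAs are standard markers of that state. They lie side by side on the same strand, and in mice they are known to share distal regulatory DNA. In the RefSeq gene order of GRCm38.p6 the neighbours on the Nppb side are 2510039O18Rik and, farther out, Plod1, which encodes a collagen lysyl hydroxylase. On the Nppa side the nearest is Clcn6, which encodes a chloride-proton exchanger of late endosomes.

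The assay was ATAC-seq, in which a transposase cuts and tags open DNA, so that more sequenced tags mean more accessible chromatin. Each day had 1 border zone library and 1 sham library, 6 in all, from left ventricles of FVB/N mice. The border zone is living muscle that adjoins the infarct scar. On day 4 both conditions used mice labelled Cdh5-Cre; Sun1-sfGFP/-, a Cre driver of endothelial cells with a nuclear envelope reporter. Their nuclei were sorted for GFP and then enriched by a pulldown of PCM1, a protein around cardiomyocyte nuclei. The labels do not say how a GFP sort in mice with an endothelial driver goes together with cardiomyocyte nuclei, and which cells the day 4 values come from was not tested. On days 7 and 14 both conditions used mice labelled with Myh6-MerCreMer, a tamoxifen-dependent Cre of cardiomyocytes, the nTnG reporter and a CAG-Sun1/sfGFP reporter at Gt(ROSA)26Sor. These mice received intraperitoneal tamoxifen at 20 mg/kg, starting a week before t=0, and 50000 sorted nuclei per sample were used. Mouse line, isolation and aligner thus change together between day 4 and the later days, and their effects cannot be told apart from that of time. The labels do not say whether a library is 1 animal or a pool, and the cell type was not checked against markers because genes could not be assigned to regions. Levels of the Nppa and Nppb RNAs are not given, since the 30 RNA-seq samples were not used here.

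The 250 bases before the start of each gene are printed to show the DNA at the gene starts, since no listed region covered the given position of either gene. They are RefSeq sequences of GRCm38.p6, both on the + strand, at chr4:147985650-147985899 for Nppb and chr4:148000472-148000721 for Nppa. These coordinates are not those of the mm9 lists. Capitals mark matches to 6 motifs of cardiac promoters, searched on both strands and chosen after the sequences were seen.
Nppb: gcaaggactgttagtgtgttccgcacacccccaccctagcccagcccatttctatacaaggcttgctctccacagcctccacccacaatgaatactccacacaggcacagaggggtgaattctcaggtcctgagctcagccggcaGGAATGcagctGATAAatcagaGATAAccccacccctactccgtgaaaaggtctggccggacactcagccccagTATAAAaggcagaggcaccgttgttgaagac
Nppa: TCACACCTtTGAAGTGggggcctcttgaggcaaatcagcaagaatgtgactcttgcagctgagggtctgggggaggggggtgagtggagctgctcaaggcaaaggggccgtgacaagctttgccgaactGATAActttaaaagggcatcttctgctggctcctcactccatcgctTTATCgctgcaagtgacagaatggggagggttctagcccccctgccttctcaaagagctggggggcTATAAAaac
Each promoter held 2 matches to GATAA, the core of GATA factor sites. At least 1 was found in 22.6% of the 32851 RefSeq windows of the same length. Both held TATAAA, the letters of the TATA box, found in 12.4% of windows. The match lay 31 to 26 bases before the start in Nppb and 9 to 4 bases before it in Nppa. The Nppb promoter held CATTCC, the M-CAT element of TEAD factors, on the opposite strand (12.6% of windows). The Nppa promoter held AGGTGTGA, a T-box half-site (1.12% of windows), on the opposite strand and TNAAGTG, an NK homeobox motif (10.1%), next to each other at its far end. TGANTCA, the AP-1 motif, was in neither (6.75% of windows), which says only that these letters are not in the windows. None of the 6 motifs overlapped another in these 2 sequences. These are matches of letters, not sites shown to be bound.

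Each region was deposited with its sham tags, as whole counts, and its border zone tags, which the authors had scaled toward the sham library except in the day 4 list of regions that did not differ. A region was in a differential list where the listed values differed by at least 1.75-fold. In the differential lists the larger value reached at least 35, 50 and 150 tags on days 4, 7 and 14. This minimum was read from the differential lists only. With 1 library per condition and day there is no test within a day. Intervals after a fold are exact Clopper-Pearson 95% intervals of the whole tags and cover counting error only. Tags are not independent molecules, and an unlisted region has no value here.

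Around Nppb and Nppa, 2 of the 7 regions of day 4 were border zone-higher and 0 were sham-higher, where 12.2% and 7.37% of all listed regions were. On day 7, 1 of 7 was border zone-higher and 1 sham-higher, against 17.5% and 22.0% of all regions. On day 14, 2 of 7 were border zone-higher and 1 sham-higher, against 13.4% and 6.75%. The other 14 of the 21 regions were in the lists that did not differ, 5 on day 4, 5 on day 7 and 4 on day 14. With 7 regions a day these counts describe the neighbourhood and do not set it apart from the genome. The region within 5 kb of Nppb on day 14 had the higher value in the border zone. So did the 2 regions nearest to Nppb on day 4, but their 22 and 6 sham tags lie under the minimum of 35. Only a higher border zone value could thus put them in a differential list. Every region 15 to 25 kb before Nppb had the higher value in sham on days 7 and 14. Most listed regions of day 7 shared this direction (median log2 ratio -0.14), while those of day 14 did not (0.03). For the regions of this group, 19.5% to 47.8% of all listed regions had a still lower ratio on day 7. On day 14 these shares were 6.08% to 36.4%, so the group was less set apart on day 7.

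**Figure D1:**
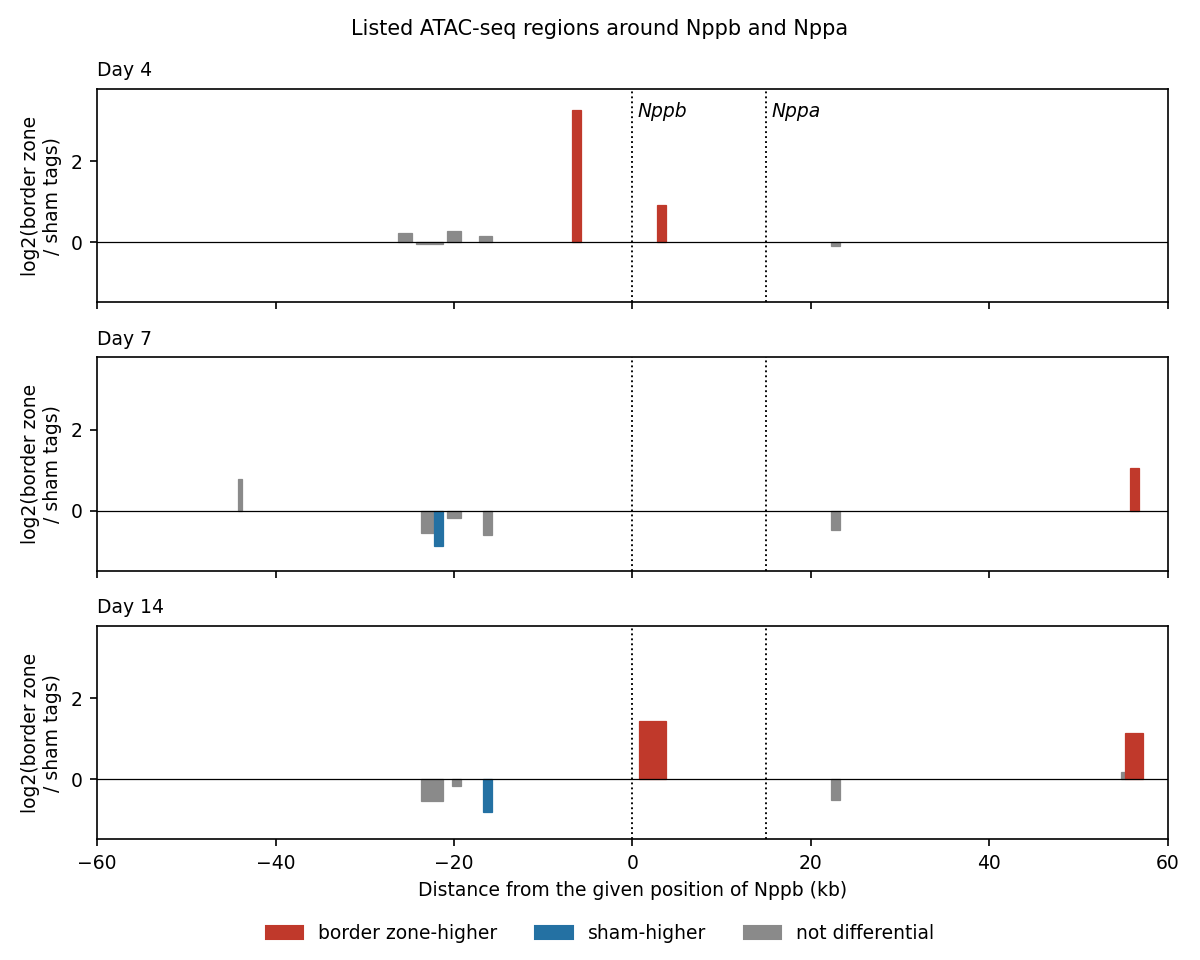
Each bar is a listed region, drawn over its own width at its distance in kb from the given position of Nppb (x axis), with its log2 ratio of listed border zone to sham tags (y axis), on days 4, 7 and 14. Red marks border zone-higher, blue sham-higher and grey not differential regions, and dotted lines mark Nppb and Nppa. On days 4 and 14 red bars stand beside Nppb, and no bar lies within 5 kb of Nppa on any day.

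Nearest to Nppb was a region with many tags on day 14. At chr4:147360751-147363750, from 0.751 kb beyond the position of Nppb, 2276 border zone tags stood against 833 sham tags. Border zone tags were thus 2.73-fold higher (2.51 to 2.97). The border zone value had been scaled by a mix of factors, so that its whole tags lie between 1660 and 1927, and the interval uses the smaller number. By fold it ranked 951 of the 5501 border zone-higher regions of that day. By tags, not divided by width, it exceeded 98.6% of all listed regions of day 14. It was 3000 bp wide, against a median of 1000 bp.

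On day 4 the same place was listed over its last 1 kb, chr4:147362751-147363750, with 41.4 border zone tags and 22 sham tags. The border zone was 1.88-fold higher (1.09 to 3.32), close to the threshold of 1.75-fold, and the region ranked 4439 of 5721. With 22 sham tags, under the minimum of 35, it could be in a differential list only with a higher border zone value. Per kb and 1000000 listed tags, the level was 7.31 in the border zone and 3.72 in sham on day 4, and 53.7 in the border zone and 19.9 in sham on day 14. The region on day 14 was 3 times as wide, so these levels do not cover the same DNA. On day 7 nothing was listed here. Of the 2851 regions of day 14 with at least as many sham tags, 97.65% had a listed region at the same locus on day 7 and 95.83% on day 4. Among the 24 border zone-higher ones, 18 did on day 7 (75%) and 16 on day 4 (66.67%). Most regions with so many sham tags, whatever their width, were thus listed on day 7, and the one beside Nppb was among the exceptions.

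The sharpest contrast lay on the other side of Nppb. At chr4:147353251-147354250, 5.75 kb before the gene position, day 4 had 57.9 border zone tags and 6 sham tags. The border zone was 9.66-fold higher (4.17 to 27.4), which ranked 34 of the 5721 border zone-higher regions of the day. The wide interval reflects the 6 sham tags, which lie under the minimum of 35. Only a higher border zone value could thus put the region in a differential list, so its direction was set by that listing. The region was not listed on days 7 and 14. Its tags exceeded those of only 9.52% of the regions of day 4.

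The largest group lay 15 to 25 kb before Nppb, and 3 of its 4 loci were listed on every day. At its centre was chr4:147335751-147338750 on day 4, which had 802 border zone tags and 832 sham tags, a ratio of 0.964 (0.874 to 1.06). On day 7 the same stretch was split in 2. Its first part, chr4:147336251-147337750, had 247.8 border zone tags and 368 sham tags, 0.673 (0.561 to 0.806). The other part, chr4:147337751-147338750, was listed as sham-higher, with 78.1 border zone tags and 143 sham tags. There sham was 1.83-fold higher (1.34 to 2.53), and it ranked 6803 of 7704 sham-higher regions. With a single factor for day 7, set from the summed listed tags, it fell just short of the threshold. On day 14, chr4:147336251-147338750 had 1422 border zone tags and 2088 sham tags, 0.681 (0.631 to 0.734). Its border zone value had also been scaled by a mix of factors, so that its whole tags lie between 1037 and 1203. The interval uses the smaller number. The region exceeded 98.9% of the day's regions by tags, not divided by width. The stretch was thus even between the conditions on day 4 and had fewer border zone tags on both later days.

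The region closest to Nppb within the group repeated that order. On day 4, chr4:147342751-147344250 had 173 border zone tags and 155 sham tags, 1.12-fold (0.893 to 1.40). On day 7 its last 1 kb, chr4:147343251-147344250, had 57.9 border zone tags and 88 sham tags, 0.658 (0.446 to 0.958). On day 14 that 1 kb was listed as sham-higher, with 178.3 border zone tags and 317 sham tags. Sham was 1.78-fold higher (1.45 to 2.20), just past the threshold, and it ranked 2494 of 2765.

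Between these stood chr4:147339251-147340750, which differed little on any day. It had 246 border zone tags and 202 sham tags on day 4, 1.22-fold (1.01 to 1.47). It had 97.0 border zone tags and 111 sham tags on day 7, 0.874 (0.640 to 1.19). On day 14 its last 1 kb had 161.8 border zone tags and 183 sham tags, 0.884 (0.695 to 1.12). Farthest out, chr4:147333751-147335250 was listed on day 4 alone, with 152 border zone tags and 131 sham tags, 1.16-fold (0.912 to 1.48). Summed over the group, 1373 border zone tags stood against 1320 sham tags on day 4, 1.04-fold (0.964 to 1.12). On day 7 the sums were 480.9 in the border zone and 710 in sham, 0.677 (0.595 to 0.770). On day 14 they were 1762 in the border zone and 2588 in sham, 0.681 (0.636 to 0.728). The ratios of days 7 and 14 were nearly equal and lay below the interval of day 4, which covers counting error only. Each sum covers its own day's listed regions, so the sums do not cover the same DNA. Mouse line, isolation of nuclei and aligner also change after day 4.

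No region lay within 5 kb of Nppa on any day. The nearest was chr4:147382251-147383250, 7.25 kb beyond the Nppa position, which kept the same borders on all 3 days and was never differential. It had 72 border zone tags and 77 sham tags on day 4, 0.935 (0.669 to 1.31). On day 7 it had 36.4 border zone tags and 51 sham tags, 0.713 (0.430 to 1.16), and on day 14 it had 115.2 border zone tags and 164 sham tags, 0.702 (0.533 to 0.919). Border zone tags were the fewer on each day, and the intervals of days 4 and 7 included 1.

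At the far end, 55 kb beyond Nppb, a further border zone-higher place appeared on both later days. On day 7, chr4:147415751-147416750 had 111.8 border zone tags and 54 sham tags, 2.07-fold (1.45 to 2.97), and ranked 3886 of 6120. On day 14, chr4:147415251-147417250 had 410.0 border zone tags and 185 sham tags, 2.22-fold (1.84 to 2.68), and ranked 2252 of 5501. It was not listed on day 4. The adjoining 500 bp, chr4:147414751-147415250, were listed on day 14 only, with 707.5 border zone tags and 631 sham tags, 1.12-fold (0.996 to 1.26). They had the highest level per kb and 1000000 listed tags of the 21 regions, 100.2 in the border zone and 90.6 in sham. At the other end, 43.75 kb before Nppb, chr4:147315751-147316250 was listed on day 7 alone, with 82.2 border zone tags and 48 sham tags. Its ratio of 1.71 (1.15 to 2.55) was just inside the threshold for regions that do not differ, and with the single factor for day 7 it passed as border zone-higher.

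**Figure D2:**
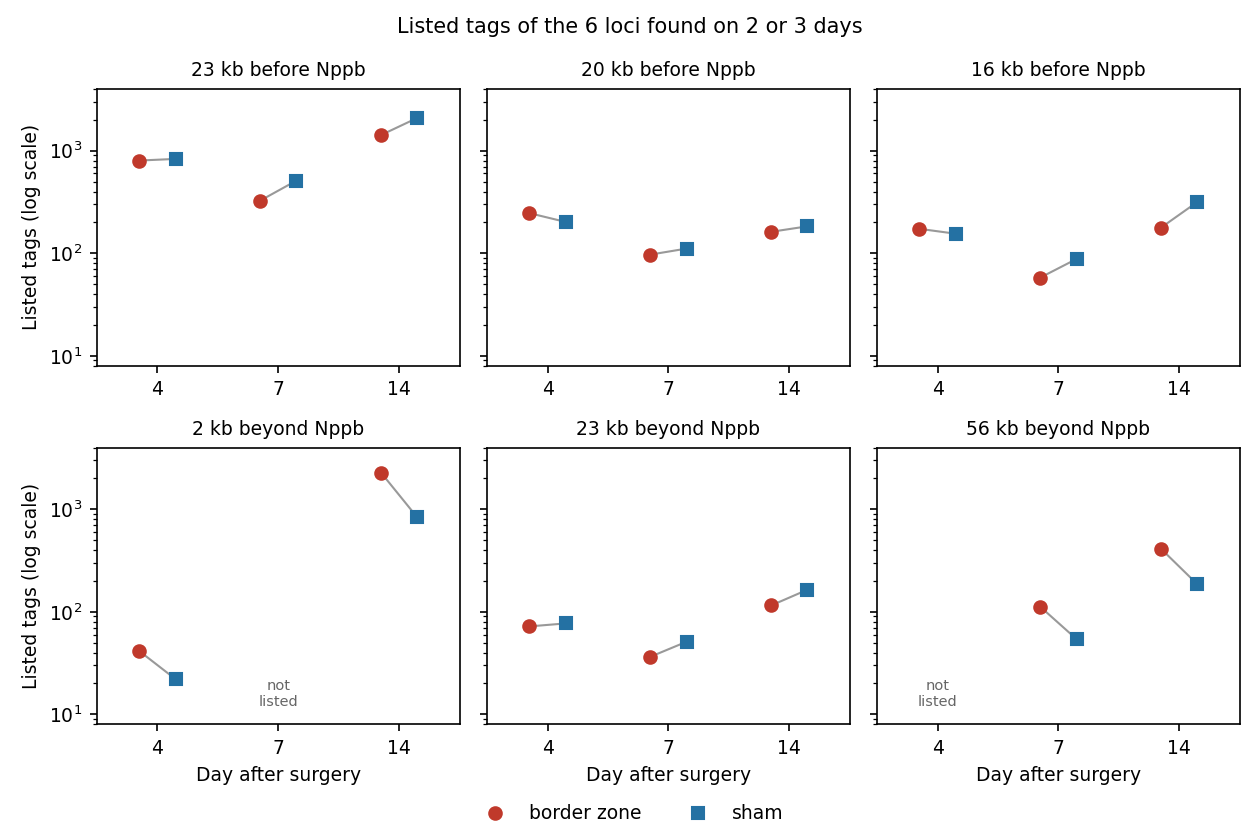
Listed tags (y axis, log scale) on days 4, 7 and 14 after surgery (x axis) at the 6 loci found on 2 or 3 days, with the border zone library as a red circle left of its sham library as a blue square, 1 library each. The panels beside Nppb (2 kb beyond) and at 56 kb beyond it have the circle above the square on each listed day. The panels of the 4 loci listed on all 3 days have it below on days 7 and 14.

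Summed over the whole neighbourhood, each day covers its own listed regions, so the sums describe each day and are not a comparison between days. Summed tags were 1544 in the border zone and 1425 in sham on day 4, over 10.5 kb of listed regions, 1.08-fold (1.01 to 1.17). On day 7 they were 711.2 in the border zone and 863 in sham over 7.5 kb, 0.824 (0.738 to 0.919). On day 14 they were 5270 in the border zone and 4401 in sham over 11 kb, 1.20-fold (1.15 to 1.25). The sum of day 14 was decided by the region beside Nppb. Without it the sums were 2994 in the border zone and 3568 in sham, 0.839 (0.795 to 0.885). That value rests in turn on 1 region, the one of 1422 border zone and 2088 sham tags, without which the log2 ratio was 0.0877 in place of -0.25. On the fewest possible whole tags without scaling, the log2 ratio of the full sum on day 14 was -0.20 in place of 0.26. Over single regions the log2 ratio had a median of 0.21, -0.49 and -0.18 on days 4, 7 and 14, against -0.09, -0.14 and 0.03 over all listed regions of these days. On day 14 the median and the sum thus differ in sign.

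The conditions were tested across days, with day as a block that pairs the libraries. The SE is that of the log2 fold change of border zone to sham. Of the 19733 loci listed on all 3 days, 7.63% were higher and 2.29% lower in the border zone at a false discovery rate of 5%, by the quasi-likelihood test of edgeR, adjusted by Benjamini-Hochberg. Of the 4 loci here among them, 0 were called in either direction, and 0 had an unadjusted p under 0.05. DESeq2 gave 0 by both counts, and limma on the listed values gave 0 calls and 1 locus at an unadjusted p under 0.05. Log2 fold changes were -0.21 (SE 0.17, adjusted p = 0.454 by edgeR) for the locus from 147335751, 0.19 (SE 0.20, adjusted p = 0.544) for that from 147339251, -0.21 (SE 0.22, adjusted p = 0.548) for that from 147342751 and -0.16 (SE 0.24, adjusted p = 0.687) for that beyond Nppa. Without the libraries of day 14 the value of the locus from 147342751 turned to 0.07 (SE 0.32, adjusted p = 0.956 by edgeR), and it was -0.51 without those of day 4. The lack of a call does not show that the conditions were alike at these loci.

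The locus beside Nppb is not listed on day 7 and so is not in that test. Among the 25726 loci listed on days 4 and 14, edgeR's quasi-likelihood test called 3.98% higher and 0.396% lower in the border zone. Of the 5 loci here, 1 was called, the one beside Nppb, with a log2 fold change of 1.48 (SE 0.23, Benjamini-Hochberg adjusted p = 0.000153). The border zone was the higher in 2 of 2 pairs. On day 4, however, its 22 sham tags lie under the 35 tags that the larger value of every region in a differential list reached. It thus entered the fit from a differential list through its border zone value, and its direction on that day was set by that listing. The call also rests on joining 1 kb of day 4 to 3 kb of day 14, and with regions joined only where midpoints lie within 250 bp the locus was not in the fit and 0 of the loci here were called. The fit has 1 residual degree of freedom and most of the tags come from day 14, and without the pairing by day the adjusted p was 1.

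The locus 55 kb beyond Nppb is not listed on day 4. Among the 26037 loci listed on days 7 and 14, the same edgeR test called 19.5% higher and 15.7% lower in the border zone, so that a call is common there. Of the 5 loci here, the one 55 kb beyond Nppb rose, with a log2 fold change of 1.19 (SE 0.24, adjusted p = 1.41e-05 by edgeR with Benjamini-Hochberg adjustment). The loci from 147335751 and 147342751 fell by 0.51 (SE 0.18, adjusted p = 0.0189 by edgeR) and 0.66 (SE 0.25, adjusted p = 0.025). At the first, the fit used 1037 whole border zone tags on day 14, the fewest of a possible 1037 to 1203. The other 2, from 147339251 and beyond Nppa, had -0.10 (SE 0.24, adjusted p = 0.777 by edgeR) and -0.42 (SE 0.32, adjusted p = 0.301). The calls of the 2 lower loci depended on the set of loci fitted and on the tool. In the same 4 libraries over the 19733 loci listed on all days, their log2 fold changes were -0.35 (SE 0.18, adjusted p = 0.125 by edgeR) and -0.51 (SE 0.24, adjusted p = 0.0879), and DESeq2 on days 7 and 14 gave adjusted p = 0.104 and 0.259. Without the pairing by day none of the 3 was called, with an adjusted p of 0.201 by edgeR at the locus 55 kb beyond Nppb. The choice of both pairs of days came after the values were known, and no difference of the effect between days was tested.

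**Figure D3:**
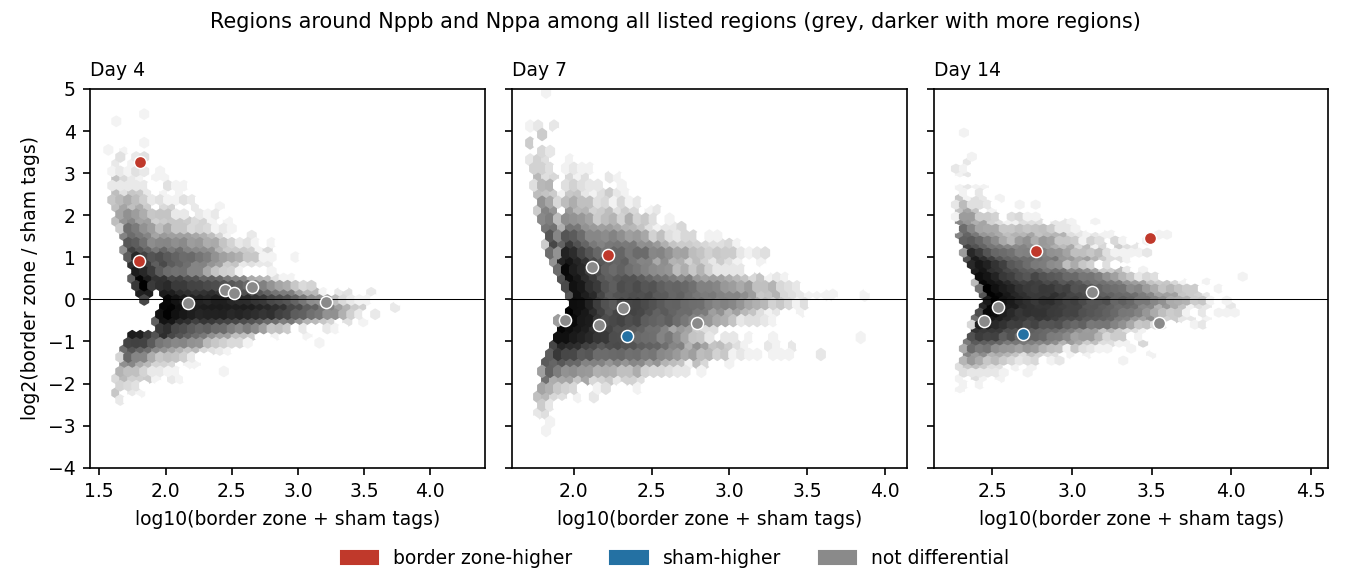
Log2 ratio of listed border zone to sham tags (y axis) against the log10 of their summed tags (x axis) on days 4, 7 and 14, for all listed regions as grey hexagons, darker with more regions, and for the 7 regions around Nppb and Nppa of each day as points (red border zone-higher, blue sham-higher, grey not differential). On day 14 the region beside Nppb, at 2276 border zone and 833 sham tags, lies at the upper right edge of the cloud.

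Regions were dense here. Each day had 7 in the 120 kb, against a median of 2, 1 and 2 on days 4, 7 and 14 over 13938 windows of the same width. These were the windows of a fixed grid that held a listed region on any day. Of them, 85.89%, 90.82% and 87.54% had fewer. Windows with like values were sought by the log2 ratios of summed tags, here 0.12, -0.28 and 0.26 on days 4, 7 and 14. Of 2522 windows with enough regions on every day, the nearest was chr10:27000001-27120000, with 0.14, -0.31 and 0.21, at a Euclidean distance of 0.0682. Next came chr5:35880001-36000000, with 0.11, -0.38 and 0.23, and chr14:32880001-33000000, with 0.14, -0.35 and 0.17. The likeness rests on 3 values a window and is a description only. Each day's sum covers its own listed regions, so the values do not compare days. Here the value of day 14 was decided by the region beside Nppb.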

How the data were processed

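ATAC-seq was analysed in 6 libraries, 1 border zone and 1 sham library on each of days 4, 7 and 14. Alignment to mm9 used Bowtie2 on day 4 and BWA on days 7 and 14, and bedtools was also used, per the submitters' processing notes. Not given in the sources used here are tool versions, the region caller, and how duplicates and the transposase offset were handled. Per the file headers, the 9 deposited lists, 3 a day, hold sham tags as counts and border zone tags as a signal that the authors scaled, or as counts in the day 4 list of regions that did not differ. Starts of regions differ by multiples of 500 bp. Depth of the whole libraries is unknown, since the lists hold regions only, and 0 columns of unmapped samples were used.

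Whole border zone tags were recovered by dividing by the day's factors, which were read from the values: 1.03 and 1.10 for day 4, 1.35 and 1.17 for day 7, 1.37 and 1.18 for day 14. Of 85106 scaled values, 97.7% were a whole number times 1 factor within a relative tolerance of 0.001%. The other 1989 were treated as approximate and divided by the first factor named for their day. This gives their fewest possible tags on days 7 and 14, but the most for the 513 such values of day 4. Intervals of folds were converted from exact binomial intervals of the border zone's share of both libraries' whole tags.

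Loci join regions of different days that share 1 bp or more. Whole tags per locus were tested with edgeR 4.0.16 (TMM, quasi-likelihood, model of day and condition, Benjamini-Hochberg adjustment over all loci tested), which leaves 2 residual degrees of freedom over the 3 days and 1 over 2 days. SE is the absolute log2 fold change divided by the root of the F statistic. The pairing by day comes from the design, since each day has 1 library per condition. The spread that p-values measure is that between these libraries and may be technical. The days stand in for replicates, so a change of the effect between days adds to this spread. Of the fits, only the edgeR test over the 3 days was tried on simulated tags, in which changed loci changed equally on every day. The fits over 2 days were not. DESeq2 1.42.0, limma 3.58.1 on log2(listed tags + 1), other scalings, left-out days and another joining rule were alternatives. R was 4.3.3 and Python 3.11.15. Sequences and motif shares come from RefSeq tables of GRCm38.p6, in which both genes were found by symbol. All differential regions and all regions within 5 kb of a gene position were to be given in full, and the 3 most similar windows were chosen by Euclidean distance. The members, lists and tests were chosen with earlier results of these data known.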

Additional observations from a re-analysis of the deposited data

Results flagged for a closer look

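At 2 loci before Nppb the ratio of border zone to sham tags pointed one way on day 4 and the other way on a later day. The intervals of counting error include 1 on days 7 and 14 at the first, which differed little on any day, and on day 4 at the other. At the locus from 147339251 the log2 ratio was lower on day 7 than on day 4 by a difference of -0.479, and on day 14 by -0.462. At the locus from 147342751 the differences were -0.762 on day 7 and -0.989 on day 14. These differences between days were not tested, since each day has 1 library per condition, and mouse line, isolation of nuclei and aligner change with the day.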

How the results depend on the processing

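With day as a replicate block, the 4 loci listed on all 3 days were called under none of the 10 alternatives. Without the replicate block their adjusted p was 0.997 by edgeR, and leaving out 1 day at a time gave 0 calls each. For the locus from 147339251 limma gave a log2 fold change of -0.0288, reversed. For that from 147342751, leaving out a day gave -0.513 (without day 4) to 0.0703 (without day 14, reversed). Limma on the listed values moved the median of all loci by -0.22. Over days 4 and 14 no locus was called without the replicate block or with midpoints within 250 bp, where the region beside Nppb was no longer joined across days (0 calls in both). Over days 7 and 14 no locus was called without the block (0 higher, 0 lower), and DESeq2 called 0 lower. A minimum of 100 tags removed no locus. A fold of at least 2 left 1 border zone-higher region on day 4 and 0 sham-higher regions on days 7 and 14. With a single factor per day, set from the summed listed tags, day 7 had 2 border zone-higher and 0 sham-higher regions. The region listed as sham-higher on day 7 fell just short of the threshold. The log2 ratio of the sums on day 4 was 0.22. Without scaling, on the fewest possible whole tags, that ratio was -0.71 on day 7 and -0.20, reversed, on day 14. Beside Nppb, the ratio without scaling was 0.99 on day 14. Without the region with the most tags the ratio of the sums was 0.32, -0.10 and 0.73 on days 4, 7 and 14. With the regions near Nppb also left out it was 0.0877, reversed, on day 14. Counting regions within 10 kb as near gave 1.83 beside Nppb on day 4, and within 2.5 kb day 4 had no region and so no value. Leaving out a day of a 2-day fit leaves no residual degrees of freedom and was not run. The causes were not tested. The border zone-higher regions of day 4 had 6 and 22 sham tags, and their intervals are the widest in relative terms.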
